A study of Mus musculus with 14 samples.

Results

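Mouse oocytes transcribe many members of the NLRP gene family, and the 8 described here are *Nlrp4a*, *Nlrp4b*, *Nlrp4c*, *Nlrp4e*, *Nlrp9a*, *Nlrp9b*, *Nlrp9c* and *Nlrp14*. They were taken as a fixed list of genes, not by their measured values, out of 20337 genes with a symbol in the count tables, which also hold 8 other *Nlrp* genes. Earlier results of these data were known when the list was chosen. RefSeq transcript identifiers were matched to gene symbols, and the transcript with the highest mean count stood for each gene. Each member had 1 transcript in the tables except *Nlrp9a*, which had 2. In full-grown oocytes with a catalytically inactive *Ago2* allele (*Ago2* ADH), a deleted *Ago2* (*Ago2* null) or the label *Dicer* KO, transcripts of *Nlrp4a*, *Nlrp4b* and the *Nlrp9* genes were lower than in control oocytes. *Nlrp4c* was higher in both *Ago2* mutants, *Nlrp4e* was higher in *Ago2* ADH and *Dicer* KO oocytes, and *Nlrp14*, by far the most abundant of the 8, was lower in *Dicer* KO oocytes.

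The study asked whether endogenous siRNAs act in mouse oocytes through cleavage of their target RNAs by AGO2. RNA was sequenced from full-grown oocytes with an intact germinal vesicle (GV), the nucleus of an oocyte arrested in meiotic prophase, in 14 libraries of 20 oocytes each. There were 3 libraries of *Ago2* fl/fl oocytes, the controls of that series, whose *Ago2* gene is floxed but not deleted, and 3 of *Ago2* ADH oocytes, in which a *Zp3*-Cre transgene deleted the floxed allele and left an allele whose protein binds small RNAs but does not cut RNA. There were 2 libraries of *Ago2* null oocytes, 3 of *Dicer* WT oocytes and 3 of *Dicer* KO oocytes, from females with an oocyte-specific loss of *Dicer*. The *Zp3* promoter acts in growing oocytes only, so AGO2 made before the deletion can persist, and the other cells of the ovary keep the gene. In the study's breeding scheme the fl/fl genotype is listed without Cre and the *Ago2* null genotype is fl/fl with Cre, so Cre and genotype cannot be told apart in that series. The driver of the *Dicer* deletion is not given in the sources used here. All females were 4 to 6 weeks old, were of a mixed background that is mainly C57BL6, and had been primed 48 h earlier with equine chorionic gonadotropin (5 IU), so the controls carry this treatment too. Each library pools oocytes of 3 females by the series' design and of 3 or 4 by the study's methods, so a p-value here measures the spread between pools of oocytes. The oocytes were stripped of cumulus cells by pipetting.

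NLRP proteins carry a pyrin domain, a nucleotide-binding NACHT domain and leucine-rich repeats. Members such as NLRP3 and NLRP1 assemble inflammasomes in immune cells, whereas a reproductive branch of the family is transcribed in germ cells and supplies maternal proteins to the egg and early embryo. The best known of that branch is NLRP5 (MATER), a part of the subcortical maternal complex. *Nlrp14* is needed for the fertility of female mice, and NLRP9B is also known as a sensor of viral RNA in the gut epithelium. The *Nlrp4* and *Nlrp9* genes multiplied by duplication in rodents. The mouse oocyte is one of few mammalian cells with abundant endogenous siRNAs, and these can arise where a transcript pairs with an antisense transcript of a related pseudogene.

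Libraries held 29380403 to 58285057 counts on transcripts, so that 3 counts correspond to 0.0515 to 0.102 counts-per-million (CPM, of the counts on transcripts), and the members had from 621 to 204588 counts in every library. The 13 oocyte marker genes (14 names, of which *H1foo* and *H1f8* are the same gene) were all in the tables. They summed to 16337.9 to 17448.5 CPM in *Ago2* fl/fl, 16237.9 to 17510.9 in *Ago2* ADH and 16644.5 to 18444.8 CPM in *Ago2* null oocytes. In the *Dicer* series, scaled on its own, they summed to 12671 to 12862.9 CPM in *Dicer* WT and 11711.6 to 11879.1 CPM in *Dicer* KO oocytes. The 15 granulosa and cumulus cell markers summed to 79.5 to 86.3 CPM in *Ago2* fl/fl, 65.4 to 71.6 in *Ago2* ADH, 60.2 to 62.6 in *Ago2* null, 96.1 to 103 in *Dicer* WT and 79.2 to 84.7 CPM in *Dicer* KO oocytes, with *Foxl2* and *Ptx3* at 0 in all *Ago2* fl/fl and *Dicer* WT libraries, and the 8 theca, stroma and blood markers to at most 2.90 CPM. The granulosa and cumulus sum was lower in the mutants of both series, as most members were. The oocyte marker sum was also lower in *Dicer* KO oocytes and overlapped in the *Ago2* series. The granulosa and cumulus sum was mostly *Cyp19a1* and *Nr5a2*, which had 30.7 to 36.1 and 33.3 to 41.1 CPM in *Ago2* fl/fl libraries. Of the markers tested, 3 of 10 (*Cyp19a1*, *Ptgs2* and *Fshr*), 1 of 12 (*Cyp19a1*) and 2 of 7 (*Nr5a2* and *Has2*) were lower in *Ago2* ADH, *Ago2* null and *Dicer* KO oocytes at an FDR of 1% by edgeR and none was higher. Over all transcripts tested, 20.1%, 19.1% and 17.8% were lower and 20.5%, 18.1% and 16.7% higher in the same order. A further 4 markers had log2 fold changes above 0.5 in *Ago2* ADH oocytes that did not pass (*Hsd17b1* 1.36, *Inha* 0.97, *Inhbb* 0.94 and *Fst* 0.53). The part of these markers in the results was not tested. *Ago2* itself had 24.0 to 25.6 CPM in *Ago2* fl/fl, 12.7 to 14.2 in *Ago2* ADH and 5.41 to 7.33 CPM in *Ago2* null libraries. *Dicer1* had 734 to 767 CPM in libraries labelled *Dicer* WT and 1632 to 1886 CPM in those labelled *Dicer* KO. Counts over a whole transcript cannot tell the deleted exons from the rest, so they do not check these labels. By the file labels every *Ago2* genotype ran on its own sequencing lane, so in that series genotype cannot be told apart from lane, while every *Dicer* library had its own lane. Non-unique alignments (those of reads with more than 1 alignment), which the tables tally apart, came to 55.7 to 59.7 per 100 counts on transcripts in *Ago2* fl/fl, 158 to 166 in *Ago2* ADH, 157 to 166 in *Ago2* null, 38.8 to 53.6 in *Dicer* WT and 93.9 to 119 in *Dicer* KO libraries. Their part in the counts of closely related genes was not tested.

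All 8 genes lie on mouse chromosome 7 (GRCm38, the assembly also called mm10), in separate places. *Nlrp9c* (chr7:26364691-26403700, minus strand), *Nlrp4a* (chr7:26435113-26476142, plus strand) and *Nlrp9a* (chr7:26535023-26574148, plus strand) are neighbours, with 31412 and 58880 bases between them and no other protein-coding gene in the gaps. *Nlrp4e* (chr7:23301192-23362277) lies 23611 bases from *Nlrp5*, and *Nlrp4c* (chr7:6045161-6105149), *Nlrp4b* (chr7:10687793-10730168), *Nlrp9b* (chr7:19991393-20062942) and *Nlrp14* (chr7:107113455-107198103) stand apart, all 5 on the plus strand. The coding sequences of *Nlrp4c* and *Nlrp4e* were 93.9% identical, those of *Nlrp4a* and *Nlrp4c* 86.3% and those of *Nlrp4a* and *Nlrp4b* 78.0%. Among the *Nlrp9* genes, identity was 87.4% for *Nlrp9a* and *Nlrp9c*, 84.2% for *Nlrp9a* and *Nlrp9b* and 82.3% for *Nlrp9b* and *Nlrp9c*. *Nlrp14* was 58.7% to 60.8% identical to the other members, so it has no close copy among them.

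How far a short read can be assigned to 1 of these genes depends on the length of identical sequence, so the longest identical coding stretches are shown for a pair that shares much (*Nlrp4c* and *Nlrp4e*), for another such pair (*Nlrp9a* and *Nlrp9b*) and for a pair that shares little (*Nlrp4a* and *Nlrp4b*). They were read from the GENCODE M21 transcripts, 5′ to 3′ on the transcript, with the identical stretch in capitals and 15 bases on either side in lower case. The stretches are 120, 129 and 34 bases long, and each lies within a single coding exon (exon 2 of 10 in *Nlrp4c*, 1 of 9 in *Nlrp4e*, 3 of 10 in *Nlrp9a* and in *Nlrp9b*, and 4 of 11 in *Nlrp4a* and of 9 in *Nlrp4b*).
Nlrp4c (chr7:6060700-6060849, plus strand, coding bases 106 to 255): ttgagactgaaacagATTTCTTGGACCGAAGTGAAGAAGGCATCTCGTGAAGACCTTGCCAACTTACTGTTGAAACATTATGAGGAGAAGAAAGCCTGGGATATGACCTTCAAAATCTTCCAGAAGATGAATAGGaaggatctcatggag
Nlrp4e (chr7:23301387-23301536, plus strand, coding bases 106 to 255): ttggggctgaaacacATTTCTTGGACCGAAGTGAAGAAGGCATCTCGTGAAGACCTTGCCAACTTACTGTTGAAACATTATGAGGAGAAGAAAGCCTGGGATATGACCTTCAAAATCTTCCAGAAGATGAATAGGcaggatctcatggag
Nlrp9a (chr7:26557532-26557690, plus strand, coding bases 574 to 732): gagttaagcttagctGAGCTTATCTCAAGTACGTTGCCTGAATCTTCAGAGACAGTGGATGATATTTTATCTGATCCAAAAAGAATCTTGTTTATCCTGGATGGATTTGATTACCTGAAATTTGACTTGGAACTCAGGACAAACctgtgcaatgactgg
Nlrp9b (chr7:20023413-20023571, plus strand, coding bases 574 to 732): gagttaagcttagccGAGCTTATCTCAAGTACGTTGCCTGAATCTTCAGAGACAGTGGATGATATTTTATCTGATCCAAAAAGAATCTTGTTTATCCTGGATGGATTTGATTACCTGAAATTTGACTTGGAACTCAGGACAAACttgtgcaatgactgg
Nlrp4a (chr7:26449936-26449999, plus strand, coding bases 967 to 1030): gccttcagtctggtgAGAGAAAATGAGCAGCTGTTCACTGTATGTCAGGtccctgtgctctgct
Nlrp4b (chr7:10714823-10714886, plus strand, coding bases 952 to 1015): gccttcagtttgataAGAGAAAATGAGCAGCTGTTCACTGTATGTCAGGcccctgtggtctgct
Reads of 36 or 50 bases from within the capitals of the first and second pair fit both genes equally well.

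Across the whole transcript, 36.9% of all 50-base stretches of *Nlrp4e* also occur, letter for letter, in another annotated gene, the highest share of the 8. The share was 11.9% for *Nlrp4c*, 6.54% for *Nlrp9a*, 6.22% for *Nlrp9b*, 4.99% for *Nlrp9c* and 3.11% for *Nlrp4a*, and it was 0 for *Nlrp4b* and *Nlrp14*. For *Nlrp4e* most of this sharing was with 5 unprocessed pseudogenes (*Gm16443* 31.0%, *Gm8486* 30.5%, *Gm8685* 30.1%, *Gm8728* 29.8% and *Gm4541* 26.3% of its stretches), none of which has a transcript in the count tables, and 8.28% was with *Nlrp4c*. Matches with up to 3 mismatches, as the study's aligner allowed for 50-base reads, were sought in other *Nlrp* transcripts only. Together with the exact matches in any gene, they covered 72.0% of the stretches of *Nlrp4e* and 57.9% of those of *Nlrp4c*. The share was 3.10% for *Nlrp4b* and 0 for *Nlrp14*. The counts of *Nlrp4b* and *Nlrp14* are therefore the ones least open to reads from related genes, and those of *Nlrp4e* and *Nlrp4c*, the 2 members that were higher in mutant oocytes, the most.

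**Figure D1:**
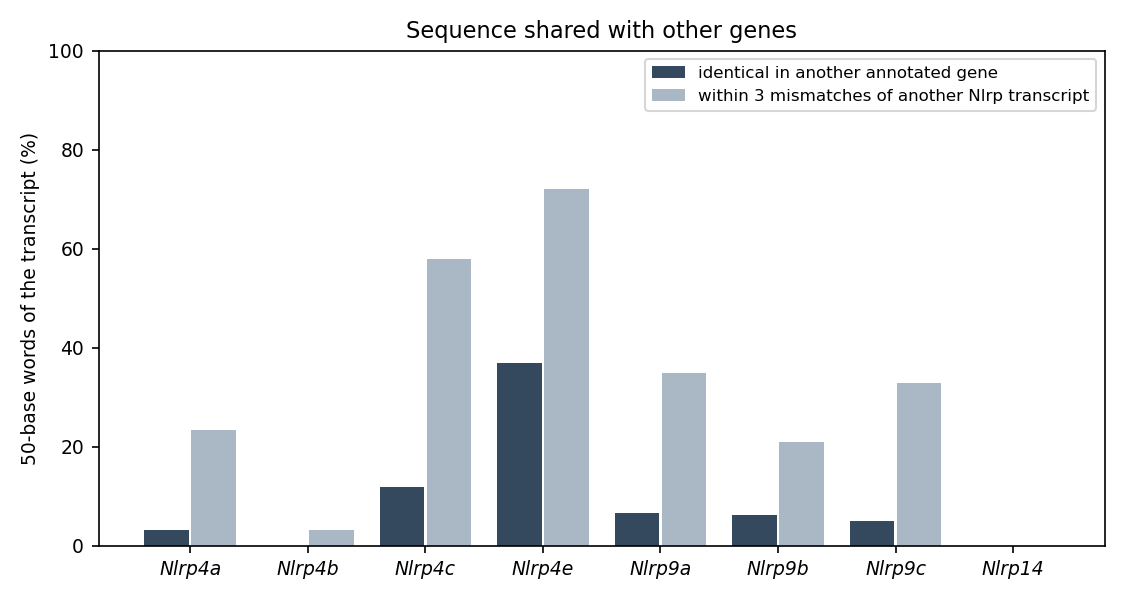
Share of each transcript's 50-base stretches (y axis, %) that occur unchanged in another annotated gene (dark bars), for the 8 genes on the x axis. Light bars add the stretches within 3 mismatches of another Nlrp transcript to those of the dark bars. *Nlrp4e* has the highest bars, 36.9% and 72.0%, and *Nlrp14* has none.

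Per transcript length the 8 genes spanned more than 2 orders of magnitude, with *Nlrp14* at the top and *Nlrp4c* at the bottom in every group. These levels are CPM per kilobase of transcript, with SD over libraries. In *Ago2* fl/fl oocytes *Nlrp14* had 945 ± 116 (SD, n = 3), which ranked it 24 among 20241 genes with a known length, and in *Dicer* WT oocytes 1302 ± 116 (SD, n = 3), rank 7. *Nlrp9b* followed with 169.9 ± 10.1 (SD, n = 3) and *Nlrp9a* with 149 ± 2.16 (SD, n = 3) in *Ago2* fl/fl oocytes, and *Nlrp4a* had 104 ± 2.94, *Nlrp4b* 89.5 ± 1.11 and *Nlrp9c* 83.5 ± 2.73. *Nlrp4e* had 41.0 ± 1.80 and *Nlrp4c* 4.03 ± 0.181 (SD, n = 3), rank 6761. In *Ago2* fl/fl oocytes no neighbours in this order overlapped between libraries. The level of *Nlrp14* was 5.56 times that of *Nlrp9b*, *Nlrp4e* stood 10.2 times above *Nlrp4c*, and *Nlrp4b* was only 1.07 times as high as *Nlrp9c*.

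The order of the members was the same in the other groups except that *Nlrp9c* stood above *Nlrp4b* there. *Nlrp9c* and *Nlrp4b* overlapped between libraries in *Ago2* ADH, *Ago2* null and *Dicer* WT oocytes and did not overlap in *Dicer* KO oocytes, while *Nlrp9b* and *Nlrp9a* overlapped in *Ago2* null oocytes. The level of *Nlrp14* was 815 ± 97.3 (SD, n = 3) in *Ago2* ADH, 839 ± 102 (SD, n = 2) in *Ago2* null and 976 ± 75.9 (SD, n = 3) in *Dicer* KO oocytes, ranks 34, 33 and 16. *Nlrp4e* moved up, from 41.0 to 47.1 ± 1.12 (SD, n = 3) in *Ago2* ADH and from 43.4 ± 3.68 in *Dicer* WT to 53.1 ± 2.12 (SD, n = 3) in *Dicer* KO oocytes, so that the ratio of *Nlrp4b* to *Nlrp4e* went from 2.45 in *Dicer* WT to 1.27 in *Dicer* KO oocytes. How many reads of *Nlrp4e* and *Nlrp4c* went to the tally of non-unique alignments is not known from the tables, so their levels relative to the other members are uncertain. The 2 transcripts of *Nlrp9a* have nearly the same count in every library, so its reads enter the table on both.

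**Figure D2:**
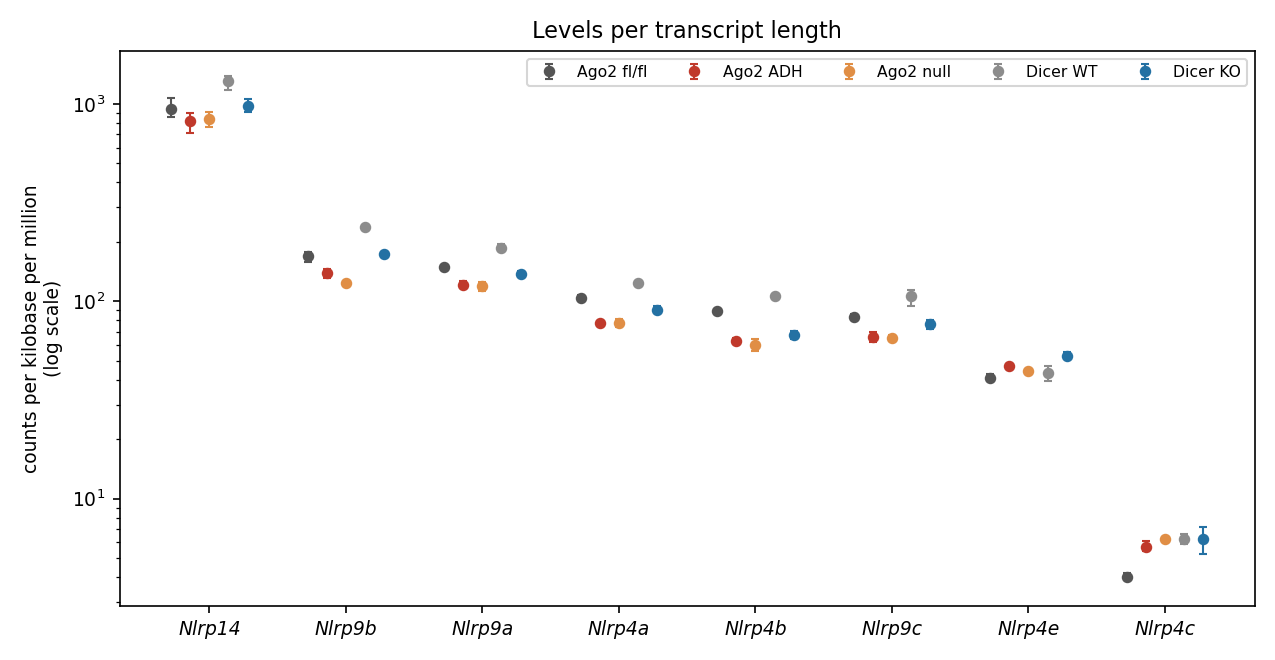
Level of the 8 genes per transcript length in each group, as CPM per kilobase of transcript (y axis, log scale), points showing the mean and bars the range from the lowest to the highest of 3 libraries (2 for *Ago2* null). *Nlrp14* lies near 1000 in every group, *Nlrp4c* between 4.03 and 6.28, and the other members in between.

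To learn what the loss of AGO2 cleavage does to these transcripts, *Ago2* ADH oocytes were compared with *Ago2* fl/fl oocytes. The *Ago2* ADH oocytes keep a single *Ago2* allele, and the study proposes that they hold less AGO2 protein. It also measured lower miRNA levels in them. Loss of cleavage cannot be told apart from these differences here. At a false discovery rate (FDR) of 1%, 7 of the 8 members were mis-regulated, 5 lower and 2 higher, where 40.7% of all 18835 transcripts tested were mis-regulated, 20.1% lower and 20.5% higher. All 8 members passed the filter on low counts in this and every other comparison. The groups did not overlap for 7 of the 8 members, as for 59.6% of all transcripts, and the median log2 fold change was -0.24 over the members and 0.01 over all transcripts. The values that follow are normalized CPM, scaled by the TMM method within the *Ago2* or the *Dicer* series, and p-values come from the quasi-likelihood test of edgeR, adjusted over all transcripts by the Benjamini-Hochberg method. In pooled oocytes, fewer oocytes with a transcript and less of it per oocyte cannot be told apart.

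*Nlrp4b*, whose sequence is nearly unshared, had 296, 289 and 283 CPM in the *Ago2* fl/fl libraries and 215, 202 and 211 CPM in the *Ago2* ADH libraries. All *Ago2* ADH libraries lay below all controls. It fell by 0.46 on the log2 scale (standard error 0.0469, adjusted p = 1.51e-07), the largest decrease among the members. *Nlrp4a* had 434, 434 and 448 CPM against 339, 334 and 332 CPM. The 3 *Ago2* ADH libraries were close to each other and well below the controls, and *Nlrp4a* fell by 0.38 (standard error 0.0440, adjusted p = 7.68e-07). The closely related pair went the other way. *Nlrp4c* had 14.5, 15.1 and 13.6 CPM in *Ago2* fl/fl and 22.3, 20.2 and 19.9 CPM in *Ago2* ADH libraries, with every mutant library above every control. It rose by 0.54 (standard error 0.0913, adjusted p = 6.27e-05), a 1.46-fold increase. *Nlrp4e* had 134, 134 and 142 CPM against 156, 164 and 163 CPM, again without overlap, and rose by 0.25 (standard error 0.0509, adjusted p = 0.000492).

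In *Ago2* ADH oocytes the 3 *Nlrp9* genes fell together, with smaller point estimates than *Nlrp4a* and *Nlrp4b*. The 95% intervals of *Nlrp9c* (-0.41 to -0.19) and *Nlrp4a* (-0.47 to -0.29) overlapped, and differences between genes were not tested. *Nlrp9b* had 527, 585 and 571 CPM in *Ago2* fl/fl and 481, 447 and 490.2 CPM in *Ago2* ADH libraries. Its highest mutant library stayed below its lowest control, and its log2 fold change was -0.24 (standard error 0.0514, adjusted p = 0.000769). *Nlrp9a* went from 493, 483 and 491 to 423, 397 and 404 CPM, a log2 fold change of -0.25 (adjusted p = 0.000114), and *Nlrp9c* from 263, 276 and 256 to 212, 202 and 226 CPM, a log2 fold change of -0.30 (adjusted p = 8.06e-05). Neither overlapped. *Nlrp14* had 3511, 2791 and 2861 CPM in *Ago2* fl/fl and 2752, 2359 and 2976 CPM in *Ago2* ADH libraries. Replicate 1 stood high among the controls, *Ago2* ADH replicate 3 was above both other controls, and the groups overlapped. The log2 fold change of *Nlrp14* was -0.17 with a 95% interval of -0.33 to -0.01, which did not pass the threshold after adjustment (adjusted p = 0.0750). Without the filter on low counts it did pass (-0.18, adjusted p = 0.00574), and with all 5 groups in 1 fit *Nlrp4e* did not (0.20, adjusted p = 0.0113), all by the same edgeR test.

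**Figure D3:**
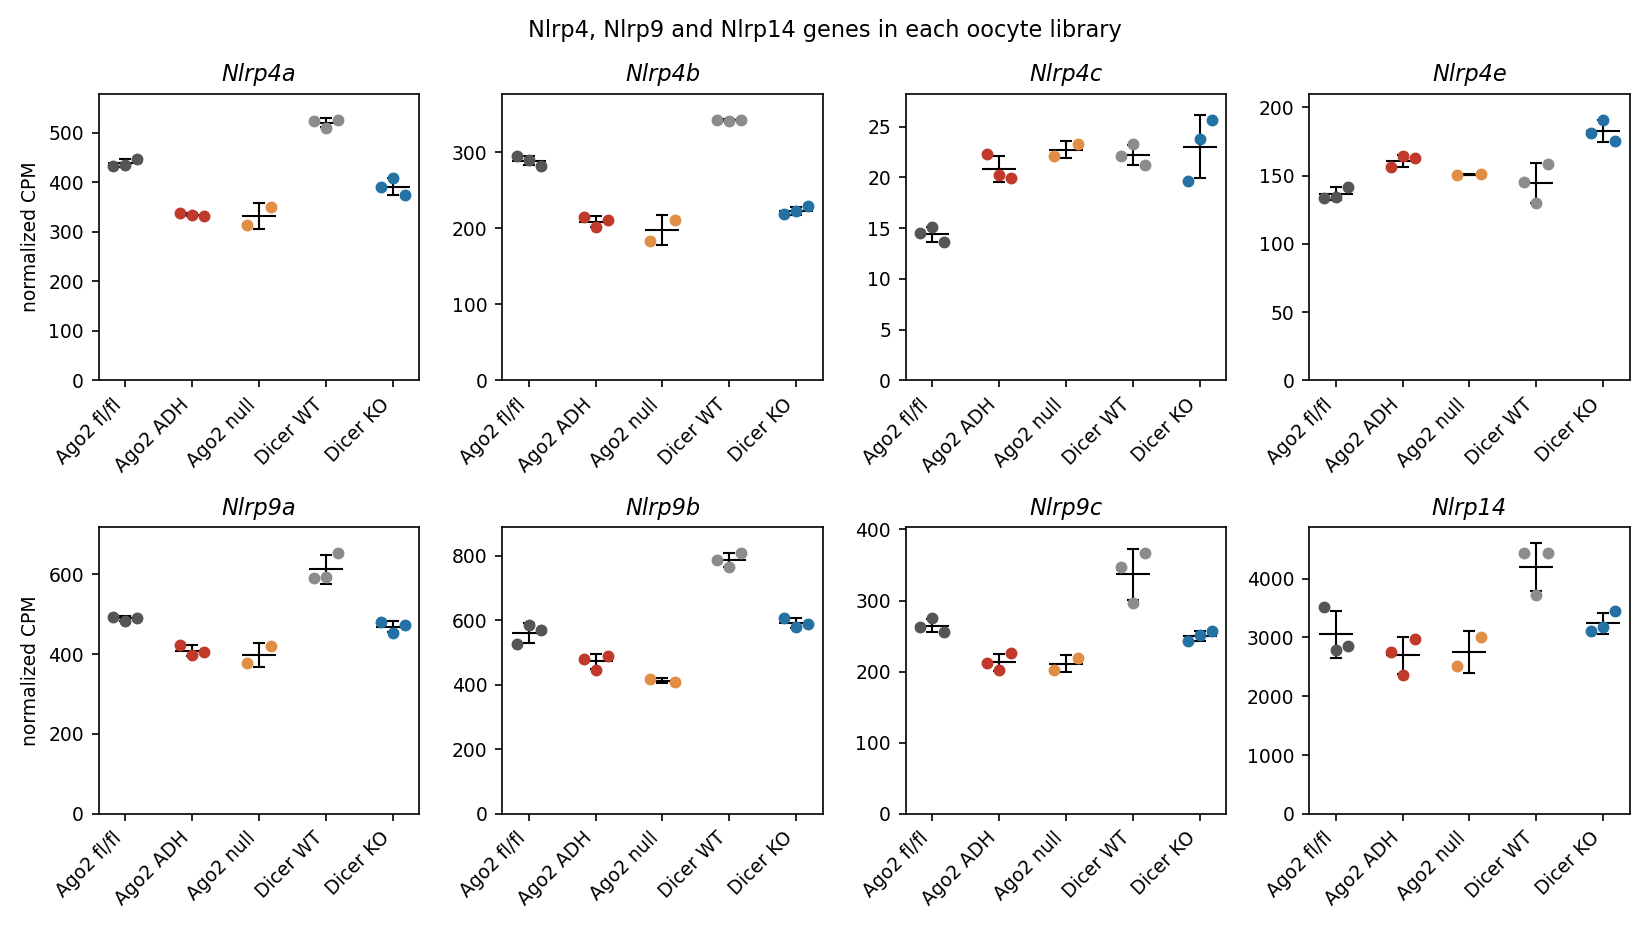
Normalized CPM (y axis, from 0) of each of the 8 genes in every library (points), grouped by genotype (x axis), with the mean and SD as bars; CPM were scaled within the *Ago2* and within the *Dicer* series, so only groups of a series compare. *Nlrp4a*, *Nlrp4b* and the *Nlrp9* genes lie lower in the mutants of both series, *Nlrp4e* lies higher, and *Nlrp4c* lies higher in the *Ago2* mutants, from 13.6 to 15.1 CPM in controls to 19.9 to 23.3 CPM.

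*Ago2* null oocytes, in which the gene and not only the cleavage by its protein is targeted, were compared with the same *Ago2* fl/fl libraries. This comparison and the one above are therefore not independent. AGO2 protein was not measured in these libraries. In these oocytes 6 of the 8 members were mis-regulated, 5 lower and 1 higher, where 37.2% of 19236 transcripts tested were mis-regulated, 19.1% lower and 18.1% higher. The groups did not overlap for 7 of the 8 members, as for 66.6% of all transcripts, and the median log2 fold change was -0.31 over the members and 0.00 over all transcripts. *Nlrp4b* had 183 and 211 CPM and fell by 0.55 (standard error 0.0645, adjusted p = 2.61e-06), and *Nlrp4a* had 314 and 350.1 CPM and fell by 0.40 (adjusted p = 3.23e-05). In both genes *Ago2* null replicate 1 was the lower library, and both replicates lay below every control. *Nlrp4c* had 22.1 and 23.3 CPM and rose by 0.66 (standard error 0.0976, adjusted p = 3.21e-05), which was the largest change of any member in any comparison. *Nlrp4e* had 150.5 and 151 CPM, above every control, but its log2 fold change of 0.14 (95% interval 0.02 to 0.27) did not pass the threshold (adjusted p = 0.0554). These are Benjamini-Hochberg adjusted values from the edgeR quasi-likelihood test.

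*Nlrp9b* had 418 and 409 CPM in *Ago2* null libraries, below every control and also below every *Ago2* ADH library, and fell by 0.44 (standard error 0.0582, adjusted p = 1.02e-05 from edgeR's test). *Nlrp9a*, with 377 and 419.6 CPM, fell by 0.29 (adjusted p = 0.000480), and *Nlrp9c*, with 203 and 219 CPM, fell by 0.33 (adjusted p = 0.000244). Both were below every control. *Nlrp14* had 2506 and 3005 CPM, and its second null library lay above 2 of the 3 controls. Its log2 fold change of -0.15 (95% interval -0.33 to 0.03) did not pass the threshold (adjusted p = 0.167).

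To set the catalytically inactive allele beside the deletion of *Ago2*, *Ago2* ADH oocytes were also compared directly with *Ago2* null oocytes. None of the 8 members differed at an FDR of 1% by edgeR's test or by DESeq2, and 1 of the 8, *Nlrp9b*, had an unadjusted p under 0.05, as had 10% of all transcripts. Among all 19306 transcripts tested, 23 (0.119%) differed, 0.0673% higher and 0.0518% lower in *Ago2* ADH oocytes. *Nlrp9b* was higher in *Ago2* ADH oocytes, by 0.18 on the log2 scale (95% interval 0.05 to 0.31, adjusted p = 0.311 from edgeR's test), and its groups did not overlap. The only other member without overlap was *Nlrp4e* at 0.09 (95% interval -0.05 to 0.22), and 26.4% of all transcripts did not overlap in this comparison of 3 with 2 libraries. For *Nlrp4a* the difference was 0.00 with an interval of -0.13 to 0.13, and for *Nlrp4b* 0.07 with an interval of -0.07 to 0.22. The intervals were widest for *Nlrp4c*, at -0.13 (-0.35 to 0.08), and *Nlrp14*, at -0.04 (-0.22 to 0.13), so differences of that size were not detectable with these libraries.

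DICER makes the siRNAs that AGO2 uses, and miRNAs as well, and the *Dicer* series has its own controls and shares no library with the *Ago2* series. In oocytes labelled *Dicer* KO, 7 of the 8 members were mis-regulated, 6 lower and 1 higher, where 34.5% of 18570 transcripts tested were mis-regulated, 17.8% lower and 16.7% higher. The groups did not overlap for 7 of the 8 members, as for 54.6% of all transcripts, and the median log2 fold change was -0.38 over the members and -0.00 over all transcripts. *Nlrp4b* had 343, 341 and 343 CPM in *Dicer* WT and 219, 223 and 229 CPM in *Dicer* KO libraries. The spread within each group was small beside the gap between them, and *Nlrp4b* fell by 0.60 (standard error 0.0563, adjusted p = 6.01e-08 from edgeR with Benjamini-Hochberg adjustment), a decrease of 34.1%. *Nlrp4a* had 524, 509.6 and 526 against 391, 408 and 375 CPM, without overlap, and fell by 0.40 (adjusted p = 1.60e-05 from the same test).

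*Nlrp4e* had 145, 129.9 and 159 CPM in *Dicer* WT and 181, 191 and 175 CPM in *Dicer* KO libraries. The controls spread more than in the *Ago2* series, yet all *Dicer* KO libraries lay above them, and *Nlrp4e* rose by 0.35 (standard error 0.0714, adjusted p = 0.000536 from edgeR's test). *Nlrp4c* had 22.1, 23.2 and 21.2 CPM against 19.6, 23.8 and 25.7 CPM. The *Dicer* KO libraries straddled the controls, and the log2 fold change of 0.07 (95% interval -0.16 to 0.30) did not pass the threshold (adjusted p = 0.645).

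*Nlrp9b* had 787, 765 and 809 CPM in *Dicer* WT and 608, 579.7 and 588 CPM in *Dicer* KO libraries, and fell by 0.40 (standard error 0.0564, adjusted p = 1.29e-05 from edgeR's test). *Nlrp9a* had 589.7, 593 and 653 against 479, 454 and 473 CPM and fell by 0.37 (adjusted p = 5.55e-05), and *Nlrp9c* had 347, 297 and 367 against 243, 252 and 257 CPM and fell by 0.41 (adjusted p = 0.000100). In all 3 genes every *Dicer* KO library lay below every control. *Nlrp14* had 4434, 3718 and 4429 CPM in *Dicer* WT and 3111, 3173 and 3446 CPM in *Dicer* KO libraries. *Dicer* WT replicate 2 stood low among its controls but above all *Dicer* KO libraries, and *Nlrp14* fell by 0.36 (standard error 0.0703, adjusted p = 0.000391 from edgeR), a decrease of 21.9%.

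Whether the effect of the *Ago2* ADH allele differs from that of *Dicer* loss was tested as an interaction in a fit of the 4 groups. No member passed an FDR of 1% by edgeR's quasi-likelihood test or by DESeq2, and 1 of the 8, *Nlrp4c*, had an unadjusted p under 0.05, against 23.3% of all transcripts. Among all 19500 transcripts, 692 (3.55%) passed, 234 (1.2%) with a higher and 458 (2.35%) with a lower effect in *Ago2* ADH oocytes, a split that became 346 and 351 when library totals replaced TMM. *Nlrp4c* had an effect 0.42 higher in the *Ago2* ADH than in the *Dicer* KO comparison (95% interval 0.13 to 0.72, adjusted p = 0.0670), and its adjusted p ranged from 0.0222 to 0.186 over the alternative analyses. So the rise of *Nlrp4c* in *Ago2* ADH oocytes and its value of 0.07 in *Dicer* KO oocytes are not shown to differ. The differences of the other members lay between -0.15 for *Nlrp4e* (95% interval -0.34 to 0.03) and 0.13 for *Nlrp14* (95% interval -0.11 to 0.38).

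**Figure D4:**
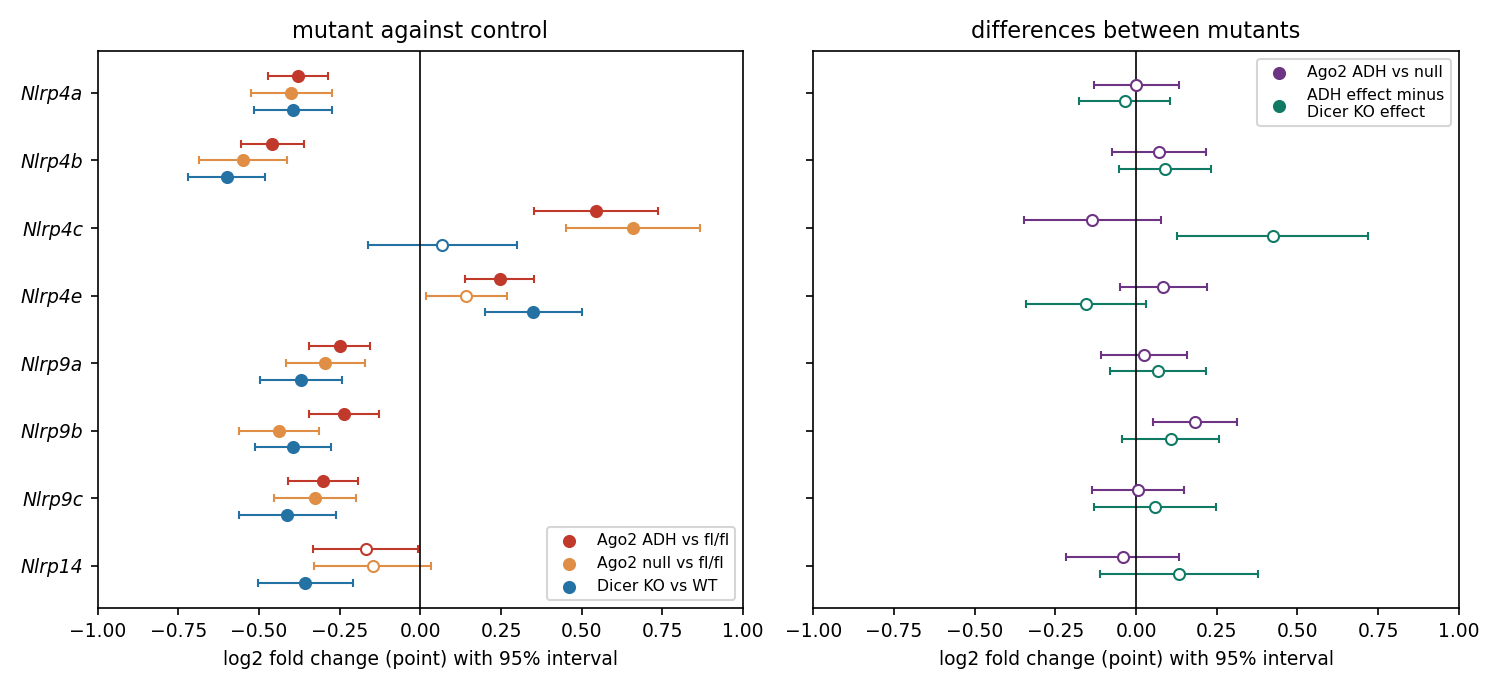
Log2 fold change of each gene (x axis, points) with its 95% interval (bars) from edgeR, for the mutants against their controls (left) and for the differences between mutants (right); filled points passed an FDR of 1%. On the left, *Nlrp4a*, *Nlrp4b*, *Nlrp9a*, *Nlrp9b* and *Nlrp9c* are filled and left of 0 in all 3 comparisons, *Nlrp4c* reaches 0.66 in *Ago2* null oocytes, and no point on the right is filled.

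Because library scaling cancels in a ratio of 2 genes within a library, the members were also compared this way, as a description with no test. The raw count of *Nlrp4e* was 0.308 to 0.317 of that of *Nlrp4a* in the *Ago2* fl/fl libraries, 0.461 to 0.493 in *Ago2* ADH and 0.431 to 0.479 in *Ago2* null libraries. It was 0.255 to 0.301 in *Dicer* WT and 0.463 to 0.468 in *Dicer* KO libraries. The ranges of mutants and controls were thus far apart in both series, and the 8 mutant libraries fell within 0.431 to 0.493. The ratio of *Nlrp4c* to *Nlrp4a* went from 0.0304 to 0.0347 in *Ago2* fl/fl libraries to 0.0600 to 0.0704 in the 5 *Ago2* mutant libraries, and from 0.0403 to 0.0456 in *Dicer* WT to 0.0501 to 0.0686 in *Dicer* KO libraries, so that relative to *Nlrp4a* it was higher in *Dicer* KO oocytes too. By contrast, the ratio of *Nlrp9a* to *Nlrp9b* overlapped between *Ago2* fl/fl (0.826 to 0.935) and *Ago2* ADH (0.824 to 0.889) libraries and between *Dicer* WT (0.750 to 0.807) and *Dicer* KO (0.783 to 0.804) libraries. In the *Ago2* null libraries this ratio was 0.902 and 1.03, both above every *Ago2* ADH library and the second also above every control. When the counts of the 4 *Nlrp4* members were summed, the sum fell by 0.26 in *Ago2* ADH, 0.32 in *Ago2* null and 0.31 in *Dicer* KO oocytes on the log2 scale (adjusted p = 3.11e-05, 0.000136 and 0.000148 from edgeR's test), the direction of *Nlrp4a* and *Nlrp4b* and not of *Nlrp4c* and *Nlrp4e*.

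**Figure D5:**
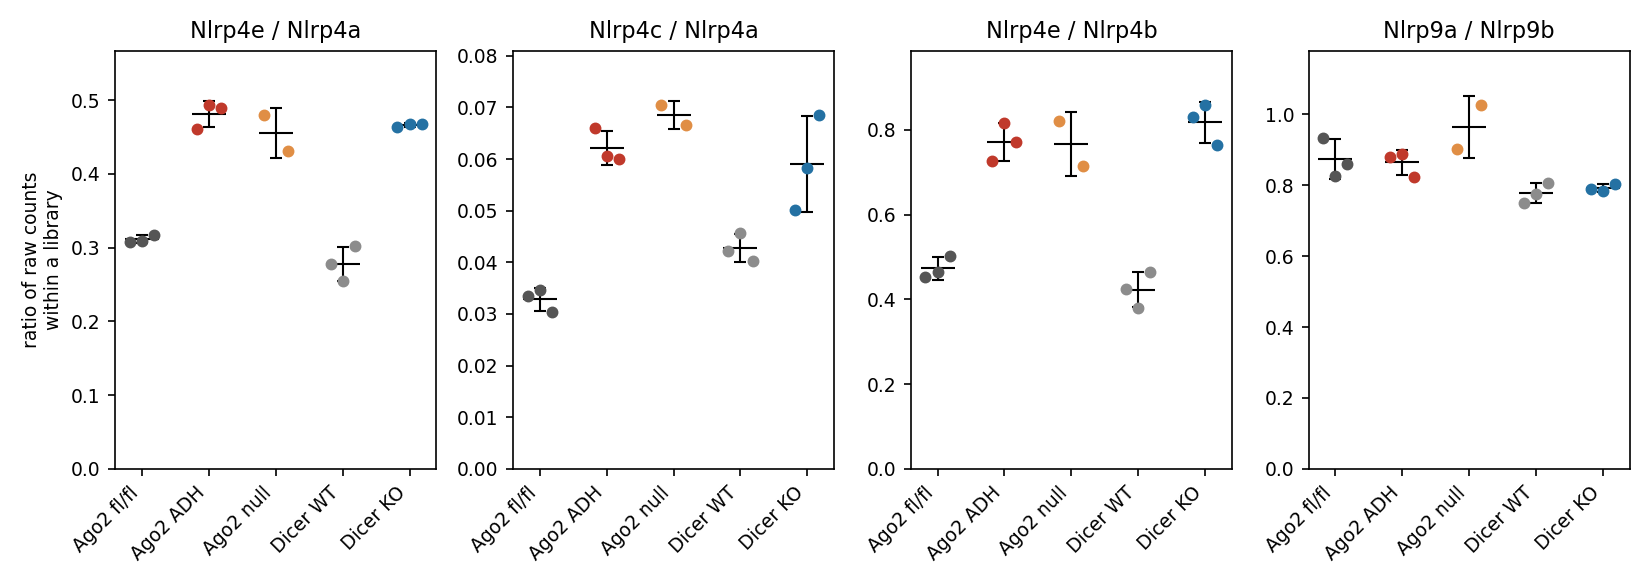
Ratio of the raw counts of 2 members within each library (points; y axis, from 0) by genotype, with the mean and SD as bars, for *Nlrp4e* to *Nlrp4a*, *Nlrp4c* to *Nlrp4a*, *Nlrp4e* to *Nlrp4b* and *Nlrp9a* to *Nlrp9b*. The first 3 ratios are higher in the mutants of both series, with *Nlrp4e* to *Nlrp4b* rising from 0.452 to 0.502 in *Ago2* fl/fl to 0.726 to 0.816 in *Ago2* ADH libraries, and the ratio of *Nlrp9a* to *Nlrp9b* overlaps.

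Since members of a subfamily moved in different directions, their promoters were compared as well. RefSeq promoters (GRCm38.p6, 250 bases before to 50 after the start) were given for 7 of the 8 members, those of *Nlrp4a* and *Nlrp4b* with 2 starts each, and *Nlrp14* was not matched. The counted transcript of *Nlrp4a* begins at its first start, and both of its promoters are shown, while that of *Nlrp4b* is shown at the first start, where its counted transcript begins. The 200 bases from 170 before the start are printed 5′ to 3′ on the gene's strand. In the *Nlrp4* promoters capitals mark E-boxes, the sequence CANNTG to which FIGLA, a transcription factor of oocytes, binds in the promoters of zona pellucida genes.
Nlrp4a, first start (chr7:26434943-26435142, plus strand): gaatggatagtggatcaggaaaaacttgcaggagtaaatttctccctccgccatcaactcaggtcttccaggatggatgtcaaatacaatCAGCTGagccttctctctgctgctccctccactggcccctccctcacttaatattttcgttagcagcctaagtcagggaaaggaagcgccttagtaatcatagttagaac
Nlrp4a, second start (chr7:26435444-26435643, plus strand): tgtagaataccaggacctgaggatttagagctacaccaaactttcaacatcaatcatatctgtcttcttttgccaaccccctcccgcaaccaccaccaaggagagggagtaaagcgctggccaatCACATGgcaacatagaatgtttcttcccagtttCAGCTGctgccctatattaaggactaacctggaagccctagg
Nlrp4b, first start (chr7:10687623-10687822, plus strand): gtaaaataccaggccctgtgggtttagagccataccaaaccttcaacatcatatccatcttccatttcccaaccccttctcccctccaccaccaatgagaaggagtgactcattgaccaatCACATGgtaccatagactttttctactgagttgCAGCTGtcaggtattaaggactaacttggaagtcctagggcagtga
Nlrp4c (chr7:6044991-6045190, plus strand): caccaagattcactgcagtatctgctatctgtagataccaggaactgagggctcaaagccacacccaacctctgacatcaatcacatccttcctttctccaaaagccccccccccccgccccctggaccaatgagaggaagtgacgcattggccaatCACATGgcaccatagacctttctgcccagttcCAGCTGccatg
Nlrp4e (chr7:23301022-23301221, plus strand): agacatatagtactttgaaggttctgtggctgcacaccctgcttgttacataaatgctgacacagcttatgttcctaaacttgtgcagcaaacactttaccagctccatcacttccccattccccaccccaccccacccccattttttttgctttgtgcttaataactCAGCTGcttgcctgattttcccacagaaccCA
In the *Nlrp9* promoters, which are shown for their likeness, capitals mark the longest identical stretch of 106 bases.
Nlrp9a (chr7:26534853-26535052, plus strand): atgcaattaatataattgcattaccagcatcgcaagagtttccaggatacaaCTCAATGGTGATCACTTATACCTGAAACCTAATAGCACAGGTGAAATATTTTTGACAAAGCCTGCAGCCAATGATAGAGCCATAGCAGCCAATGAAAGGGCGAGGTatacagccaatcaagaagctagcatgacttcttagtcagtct
Nlrp9c (chr7:26403671-26403870, minus strand): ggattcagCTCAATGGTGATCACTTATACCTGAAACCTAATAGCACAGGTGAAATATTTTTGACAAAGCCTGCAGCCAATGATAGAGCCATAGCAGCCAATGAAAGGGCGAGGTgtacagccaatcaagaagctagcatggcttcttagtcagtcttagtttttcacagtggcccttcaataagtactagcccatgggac
The promoter at the first start of *Nlrp4a* has CAGCTG 80 bases before the start and no CACATG. At the second start of *Nlrp4a* and the first of *Nlrp4b* the E-boxes lie alike, with CACATG 45 and 49 bases and CAGCTG 12 and 16 bases before the start, and *Nlrp4c* has the same pair with CACATG 13 bases before its start. *Nlrp4e* has CAGCTG 2 bases before its start and no CACATG, and the capitals at its end open an E-box that runs past the printed window.

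Motifs were searched on both strands in all 32544 distinct RefSeq promoters of the same length. CANNTG was found in all 7 members with an entry and in 72.3% of all promoters. CACATG, which is a form of CANNTG, was found in 4 of 7 members and 14.2% of promoters, and CAGCTG, another form, in 4 of 7 and 16.4%. These 2 forms were picked after the members' sequences were seen. CCAAT was found in 6 of 7 members and 37.4% of promoters, TAATTG in 2 of 7 and 8.01%, and TATAAA in 1 of 7, *Nlrp9b*, and 13.6%. A member with 2 starts was counted where either promoter held the motif. The longest identical stretch between promoters was 20 bases for the second start of *Nlrp4a* with *Nlrp4c* and 16 with *Nlrp4b*, 7 and 9 bases for its first start with the same genes, 15 for *Nlrp4b* and *Nlrp4c*, and 10 or fewer for the other pairs apart from *Nlrp9a* and *Nlrp9c*. These are matches of letters and were not tested as binding sites.

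For each member, the gene whose log2 CPM pattern over the 14 libraries was nearest, after each gene was centred, was sought among 15124 genes by the mean absolute difference. *Phip* was nearest to *Nlrp9b*, at a mean difference of 0.02 (log2), *Arcn1* to *Nlrp4a* at 0.03, *Itga9* to *Nlrp9a* at 0.04 and *Gnptab* to *Nlrp9c* at 0.04. *Champ1* was nearest to *Nlrp4b* at 0.05, *Net1* to *Nlrp4e* at 0.04, *Mpdz* to *Nlrp14* at 0.07 and *Gpx3* to *Nlrp4c* at 0.08, where the median over all genes was between 0.37 and 0.44. The member nearest to *Nlrp9b* was *Nlrp9a* at 0.06, with 24 genes nearer, and the member nearest to *Nlrp4e* was *Nlrp4c* at 0.25, with 4220 genes nearer. The patterns of the *Nlrp9* genes were therefore close to each other, and those of *Nlrp4e* and *Nlrp4c* were not, although their coding sequences are the most alike. Closeness was not particular to the *Nlrp9* genes. The member nearest to *Nlrp4a* was *Nlrp9b* at 0.07, with 177 genes nearer, and the member nearest to *Nlrp4b* was *Nlrp4a* at 0.09, with 250 genes nearer.

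Of the 8 other *Nlrp* genes in the tables, 7 passed the filter. In *Ago2* ADH oocytes 2 of them rose (*Nlrp5* and *Nlrp12*) and 1 fell (*Nlrp4f*), in *Ago2* null oocytes 3 rose and 2 fell, and in *Dicer* KO oocytes 1 rose and 2 fell. Over all transcripts the share mis-regulated was 40.7%, 37.2% and 34.5%. The count of 5 in *Ago2* null oocytes became 2 without *Ago2* fl/fl replicate 2 or 3, 3 without *Ago2* fl/fl replicate 1 or *Ago2* null replicate 2, and 2 with the replicate number as a block, and the count of 3 in *Dicer* KO oocytes became 1 without *Dicer* WT replicate 1. *Nlrp4f*, an oocyte gene of the *Nlrp4* subfamily, fell in all 3 comparisons, by 0.30, 0.27 and 0.25 (adjusted p = 9.65e-06, 0.00113 and 0.00173 from edgeR's test), as *Nlrp4a* and *Nlrp4b* did. *Nlrp5*, the neighbour of *Nlrp4e*, had 1107, 1098 and 1128 CPM in *Ago2* fl/fl and 1409, 1286 and 1395 CPM in *Ago2* ADH libraries and rose by 0.31 (adjusted p = 1.56e-05). It rose by 0.19 in *Ago2* null oocytes (adjusted p = 0.00701), and its log2 fold change was 0.08 in *Dicer* KO oocytes (adjusted p = 0.415). *Nlrp12*, known from myeloid cells, rose by 2.66, 2.53 and 2.21 from at most 0.916 CPM in controls to between 1.87 and 4.48 CPM in mutants, which is far below the members.

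Among 8 genes of NLRP5 itself and of maternal proteins that act with it in the egg or belong to the same branch, 3 rose and 4 fell in *Ago2* ADH oocytes, 3 rose and 5 fell in *Ago2* null oocytes, and 1 rose and 3 fell in *Dicer* KO oocytes, beside the same shares over all transcripts. *Nlrp5*, *Nlrp2* and *Nlrp4f* of this list are also among the other *Nlrp* genes above, so the counts overlap. The count of 8 in *Ago2* null oocytes became 3 without *Ago2* fl/fl replicate 2 and 5 with the block, and the count of 4 in *Dicer* KO oocytes became 1 without *Dicer* WT replicate 1. *Khdc3* (FILIA) and *Padi6*, which cytoplasmic lattices need, rose by 0.58 and 0.32 in *Ago2* ADH oocytes, and *Tle6*, a part of the subcortical maternal complex, fell by 0.19, 0.26 and 0.46 in *Ago2* ADH, *Ago2* null and *Dicer* KO oocytes. *Ooep*, another part of it, fell by 0.35 in *Ago2* ADH and rose by 0.21 in *Dicer* KO oocytes, and this difference passed the test (-0.61, adjusted p = 6.97e-06 for the interaction from edgeR's test). Of 22 inflammasome and related genes in the tables, 15, 15 and 13 were tested in the *Ago2* ADH, *Ago2* null and *Dicer* KO comparisons. *Nlrp1a*, *Nlrp1b*, *Nlrp3*, *Nlrp10* and *Nlrp12* of these also belong to the other *Nlrp* genes above. In *Ago2* ADH oocytes 3 rose (*Aim2*, *Nlrp12* and *Naip1*) and 1 fell (*Nod2*), in *Ago2* null oocytes 4 rose (*Nlrp1a*, *Nlrp12*, *Casp4* and *Naip1*) and none fell, and in *Dicer* KO oocytes 2 rose (*Nlrp12* and *Naip1*) and 1 fell (*Nod2*). The share of all transcripts mis-regulated was 40.7%, 37.2% and 34.5%, and the count of 4 in *Ago2* null oocytes became 2 without *Ago2* fl/fl replicate 2 or *Ago2* null replicate 2 and 2 with the block. *Naip1*, a sensor of bacterial secretion needles, had 33.6, 38.9 and 33.5 CPM in *Ago2* fl/fl and 126, 146 and 141 CPM in *Ago2* ADH libraries, and rose by 1.97, 2.06 and 1.90 in the 3 comparisons. *Il1b*, whose product inflammasomes activate, had no count in any library.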

How the data were processed

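Lysates of 20 oocytes per library had been made into amplified cDNA (Ovation RNA-Seq System V2), and paired-end reads were aligned by the authors with TopHat (2.0.7 in the submitters' processing notes) to mm10 and counted with HTSeq 0.6.1, without regard to strand. The authors deposited raw counts of reads for 26495 RefSeq transcripts, with 5 tally rows that hold 34.0% to 65.0% of each file's total and were left out of library sizes and tests. Reads aligned with 1 or 3 mismatches at most (36 and 50 bases). The sources used here do not say which libraries had which read length. Reads of amplified cDNA carry no molecular identifiers here and are not independent, so floors cover counting error only.

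Transcripts were matched to symbols by RefSeq (26077) and GENCODE M21 (117) tables, and 301 had none. Fits used all transcripts and only the libraries of the groups compared, with edgeR 4.0.16 in R 4.3.3 (filterByExpr with minimum count 10 and total 15, TMM, quasi-likelihood test, Benjamini-Hochberg, FDR of 1%). The standard error is the absolute log2 fold change divided by the square root of F. Sequence sharing was searched in 141767 GENCODE transcripts on both strands with Python 3.11.15, and coding sequences were aligned with biopython 1.88. The tests were checked on simulated data, with 50 transcripts altered at each log2 size. At 0.25, edgeR recovered 12, 7 and 4 of 50 in the *Ago2* ADH, *Ago2* null and *Dicer* KO comparisons with controls. It recovered 2 of 50 for *Ago2* ADH against null and 1 of 50 for the interaction. At 0.5 the numbers were 31, 32, 26, 24 and 14 of 50 in the same order, and at 2 all 50 were recovered in each. The share of transcripts altered was far below the 40.7%, 37.2% and 34.5% mis-regulated in the data for the comparisons with controls. Altered transcripts were also drawn from those with lower counts than the members. The numbers recovered therefore do not measure how often changes of the members are detected. No pair of libraries of a group agreed within sampling noise (chi-square per degree of freedom from 6.35 to 14.3).

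Alternatives were DESeq2 1.42.0, RLE scaling, library totals, no filter, a floor of 10 counts in every library, 1 transcript per gene, summed transcripts, summed subfamilies, all 5 groups in 1 fit, an FDR of 5%, each replicate left out and the replicate number as a block. Their use on the other gene lists was added after seeing the data. Named were the 8 members, *Ago2*, *Dicer1*, the other *Nlrp* genes, the lists of maternal partners and inflammasome genes, and the gene nearest in pattern to each member. The members and lists were chosen with earlier results of these data known.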

Additional observations from a re-analysis of the deposited data

Results flagged for a closer look

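Non-unique alignments (those of reads with more than 1 alignment) were tallied by the authors outside the transcript counts, and no comparison uses that tally. It was higher in every mutant library than in any control of its series. Per 100 counts on transcripts, the lowest *Ago2* ADH library had 158 and the lowest *Ago2* null library 157, against 59.7 in the highest *Ago2* fl/fl library. The lowest *Dicer* KO library had 93.9, against 53.6 in the highest *Dicer* WT library. The tally does not name genes, so how much of it came from *Nlrp4e*, *Nlrp4c* or their related pseudogenes was not tested. All groups had 2 or 3 libraries, so single libraries were not tested for standing apart.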

How the results depend on the processing

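Over the alternatives, the members mis-regulated numbered 6 to 8 in *Ago2* ADH, 6 in *Ago2* null and 7 in *Dicer* KO oocytes, and 0 for both differences between mutants. With each replicate left out in turn they numbered 7, 6 and 7. Of 120, 112 and 120 values for single members in the 3 comparisons with controls, 118, 112 and 119 kept their direction and their side of the threshold. The exceptions were *Nlrp4e* with all 5 groups in 1 fit and *Nlrp14* without the filter, given with their results, and *Nlrp4c* in *Dicer* KO oocytes, which was -0.019 without *Dicer* KO replicate 3 (-0.019 to 0.170 with each replicate left out). Values of summed subfamilies have the sign of their larger members. The *Nlrp4* sum was -0.26, -0.32 and -0.31 in the 3 comparisons, below 0 where *Nlrp4c* and *Nlrp4e* were above it, 0.035 for *Ago2* ADH against null, and -0.0057 for the difference from *Dicer* KO, and the *Nlrp9* sum was -0.25, -0.36 and -0.39. Differences near 0 changed sign. For *Ago2* ADH against null, leaving out a replicate gave -0.070 to 0.082 for *Nlrp4a*, -0.022 to 0.177 for *Nlrp4b*, -0.045 to 0.103 for *Nlrp9a*, -0.046 to 0.064 for *Nlrp9c* and -0.161 to 0.095 for *Nlrp14*. For the difference from *Dicer* KO, *Nlrp9c* ranged from -0.0080 to 0.148, and *Nlrp4a* was 0.033 with library totals. The level of *Nlrp9a* per length became 295 in *Ago2* fl/fl and 370 in *Dicer* WT oocytes when its transcripts were summed, since both carry the same reads.

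Replicate numbers did not pair the libraries, since deviations of same-numbered libraries correlated at -0.0897 to 0.0428. With the replicate number as a block, 7, 6 and 7 members were mis-regulated and 0 differed between mutants, and *Nlrp9c* was -0.040 for *Ago2* ADH against null. The block took the other *Nlrp* genes from 5 to 2 and the maternal partners from 8 to 5 in *Ago2* null oocytes. For other lists, leaving out a replicate gave 2 to 4 of the other *Nlrp* genes, 3 to 7 of the maternal partners and 2 to 3 inflammasome genes in *Ago2* null oocytes, and 1 to 3, 1 to 4 and 3 to 4 in *Dicer* KO oocytes. Values of these lists that did not pass and changed sign when a replicate was left out were those of *Nlrp10* in *Ago2* null (-0.58 to 0.95), of *Nlrp1a* (-0.25 to 0.25), *Nlrp5* (-0.013 to 0.133) and *Padi6* (-0.096 to 0.0094) in *Dicer* KO oocytes, of *Nlrp10* (-0.26 to 1.11), *Nlrp12* (-0.13 to 0.37), *Nlrp4f* (-0.131 to 0.051), *Padi6* (-0.124 to 0.066) and *Zbed3* (-0.0024 to 0.125) for *Ago2* ADH against null, and of *Nlrp10* for the difference from *Dicer* KO (-0.60 to 0.58, and 0.18 with the block). *Zbed3* in *Dicer* KO oocytes was -0.011 with library totals. *Nlrp10* had only 4 to 36 counts in an *Ago2* fl/fl and 12 to 17 in a *Dicer* WT library.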
